A study of Mus musculus with 30 samples.

Results

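Mouse embryonic stem (ES) cells treated with doxycycline (Dox) were set against ES cells treated with DAPT, both at ambient oxygen. The question was how cells given an inducer of Notch signaling differ from cells given an inhibitor across all genes within 6 hours. The 8 samples compared, 4 in each group, were those whose sample names give these treatments, out of 28 samples in 7 groups. All were cells of Ainv15, a male ES cell line with a single inserted gene under a promoter that doxycycline switches on. Dox cells were kept for 6 hours in serum-free N2B27 medium with doxycycline at 2 ug/ml. DAPT cells were kept for 6 hours in N2B27 with DAPT (2.5 ng/ml according to the labels), and before that for 4 hours in ES cell medium that also held DAPT. DAPT inhibits gamma-secretase, the protease that frees the Notch intracellular domain. Other groups used here were 1% O2+Dox and 1% O2+DAPT, which received the same agents under 1% oxygen, and N2B27, which received the medium for 6 hours and neither agent. For Dox, samples 3 and 4 had 2 arrays each, which were averaged.

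The labels do not name the induced gene, which is known from the study to be the Notch1 intracellular domain. No cells without it received doxycycline, and the labels do not give the medium of the Dox cells before their 6 hours. Effects of the induced gene, the drug and the DAPT pretreatment thus cannot be told apart in this contrast. The samples are labelled biological replicates with no word on separate cultures, so the p-values cover the spread among these samples only, part of which may be technical.

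Notch is a receptor that is cut when a ligand on a neighbouring cell binds it. The freed intracellular domain enters the nucleus, joins the DNA-binding protein RBPJ and switches on target genes. Among the best known targets are the Hes and Hey genes, whose products are repressors that silence genes of neural differentiation, and feedback inhibitors such as Nrarp. In ES cells Notch signaling is low and is known for favouring a neural fate once differentiation starts.

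Levels are given as log2 of the normalized array intensity, in the order of replicates 1 to 4, and differences are Dox minus DAPT on that log2 scale with their standard error (SE). A gene was called when limma's adjusted p, from a model with the replicate number as a block, was under 0.05. Of 9825 genes tested, 187 were called (1.9%), with 121 higher in Dox (1.23%) and 66 lower (0.672%). Each count of list members below is to be read beside these shares. At least 2-fold differences were measured for 21 of them, 18 higher and 3 lower, with genes at background in 1 group taken at their bound. The median size of the 187 differences was 0.53, against 0.06 over all genes. In 185 of the 187 all 4 replicate pairs had the same direction, against 9.85% of all genes with Dox higher in 4 of 4 pairs and 9.07% with Dox lower. Groups did not overlap in 93 of the 187, against 1.92% of all genes. The 187 were called on these same samples, which favours large differences, pairs of 1 direction and separate groups. These 3 comparisons with all genes therefore describe the called genes and are no separate support. Without the block 42 genes passed (0.427%), 29 higher and 13 lower, all among the 187.

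Replicates 1 and 2 stood apart from replicates 3 and 4, and why the block changed the number of calls was not tested. The first principal component of the 8 samples carried 70.5% of the variance and separated these sets in both groups. The labels do not say what the sets are. Replicates 1 and 2 alone gave 81 calls (0.824%) and replicates 3 and 4 alone 54 (0.55%), of which 72 and 51 were among the 187 and 39 of these were called in both. The direction was the same in both sets for all 187 genes, against 5267 of all 9825, but the 187 were called on both sets together, which favours a shared direction. A test of the difference between the sets called 0 genes (0%) in limma, where 464 had an unadjusted p under 0.05. The SD of log2 differences was 0.268 between Dox samples 1 and 2, 0.248 between 3 and 4, and 0.541 between 1 and 3. Between repeat arrays of 1 sample it was 0.213 and 0.233. The mean signal of the 10 arrays ranged from 675 to 862. Of the ES cell markers 7 of 7 on the array lay above background on all 8 samples. Their summed level was 14.97 to 15.10 in Dox and 14.86 to 15.02 in DAPT, a sum set mainly by the brightest markers. Single markers did differ between the replicate sets. Sox2 had levels of 8.998, 8.84, 11.17 and 11.20 in Dox, against 9.63, 9.08, 11.14 and 10.91 in DAPT. Pou5f1 went the other way, at 13.11, 12.99, 12.25 and 12.23 in Dox. For fibroblast feeder cells the summed level of 7 markers was 9.44 to 10.00 in Dox and 9.44 to 9.92 in DAPT, of which Col1a1 and Thy1 were above background on 8 of 8 samples, Dcn on 1 Dox and 3 DAPT samples, and Col1a2, Col3a1, Postn and Lum on 0 of 8.

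**Figure D1:**
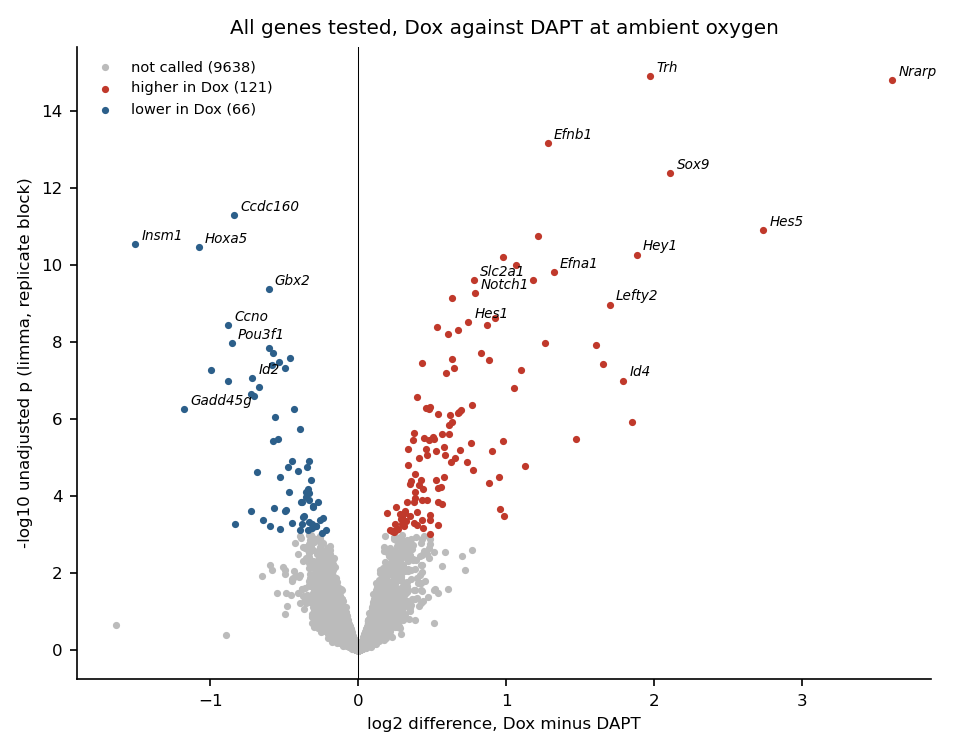
Each point is 1 of the 9825 genes tested. The horizontal axis is the log2 difference, Dox minus DAPT, and the vertical axis is -log10 of limma's unadjusted p. Red points are the 121 genes called higher in Dox and blue points the 66 called lower. Nrarp has the largest rise, and the called rises reach further from 0 than the called falls. For genes at background in 1 group, such as Hes5, Id4 and Insm1, the plotted difference is the fitted one and not a bound.

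The known targets of Notch were among the strongest rises. Of 19 list members on the array 12 passed the filter on low values and were tested. Of these 12, 6 were higher in Dox and 0 lower, with a list median of 0.27, against -0.0005 over all genes. The filter counted samples of all groups, so a dim gene could pass through the groups where it was high. Counts and medians of this and other lists may be raised in size by such genes. Nrarp encodes a small ankyrin protein that binds the Notch complex and damps it. Its level was 12.45, 11.25, 11.18 and 10.80 in Dox, against 7.99, 7.73, 7.88 and 7.64 in DAPT. Each Dox sample lay far above every DAPT sample, with Dox replicate 1 the highest, and the difference was 3.61 ± 0.19 (adjusted p = 7.80e-12), or 12.2-fold. In bulk RNA, more cells expressing a gene and more RNA per cell cannot be told apart.

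Hes5, a repressor of the basic helix-loop-helix (bHLH) class that holds back neuronal differentiation, had levels of 9.32, 8.30, 8.45 and 8.86 in Dox, against 6.01, 5.89, 6.15 and 5.93 in DAPT. It was above background on 4 of 4 Dox samples and 0 of 4 DAPT samples, and so was at least 5.70-fold higher in Dox (adjusted p = 2.02e-08). The related repressor Hey1 had levels of 9.09, 8.45, 8.60 and 8.28 in Dox, against 6.89, 6.85, 6.82 and 6.34 in DAPT. Groups did not overlap, DAPT replicate 4 was the lowest sample, and the difference was 1.88 ± 0.16 (adjusted p = 5.19e-08). Hes1, another repressor of the Hes family, had levels of 10.29, 10.41, 10.11 and 10.09 in Dox, against 9.67, 9.62, 9.45 and 9.17 in DAPT. All Dox samples lay above all DAPT samples, and the rise was smaller, at 0.74 ± 0.08 (adjusted p = 1.43e-06).

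Sox9, a transcription factor of neural stem cells, chondrocytes and gland progenitors, had levels of 9.89, 9.27, 9.25 and 9.11 in Dox, against 7.37, 7.16, 7.40 and 7.14 in DAPT. The groups were clearly separate, with a difference of 2.11 ± 0.14 (adjusted p = 9.74e-10). Dtx1, which encodes the ubiquitin ligase Deltex1 that acts on Notch, had levels of 7.98, 7.80, 8.06 and 7.86 in Dox, against 7.43, 7.66, 7.51 and 7.15 in DAPT. Its groups did not overlap, but DAPT replicate 2 came close to Dox replicate 2, and the difference of 0.49 ± 0.12 (adjusted p = 0.0260) lost its call on 6 of 8 omissions of 1 sample, with an adjusted p of up to 0.120 without Dox replicate 1. The other 6 members were not called. They included the growth genes Myc (-0.24 ± 0.11) and Ccnd1 (-0.08 ± 0.05) and the cell-cycle inhibitor Cdkn1a (-0.14 ± 0.09). Hes7, Hey2 and Heyl did not pass the filter on low values and were not tested.

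**Figure D2:**
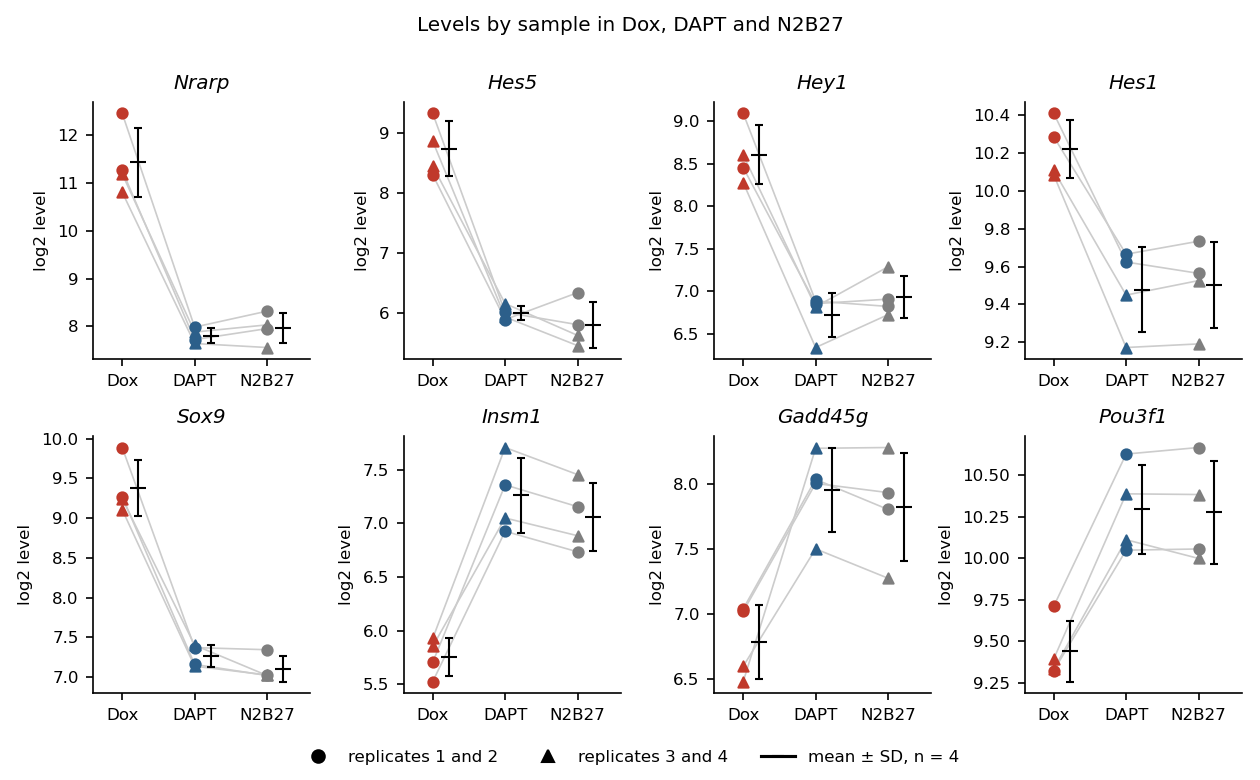
The panels show log2 levels of 8 genes in Dox, DAPT and N2B27, with 1 point for each sample (n = 4 each), grey lines joining samples of the same replicate number, and bars for the mean ± SD. Nrarp, Hes5, Hey1, Hes1 and Sox9 lie higher in Dox and Insm1, Gadd45g and Pou3f1 lower, without overlap between Dox and DAPT, while N2B27 samples lie at or close to the DAPT levels.

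RBPJ binds a core of TGGGAA, and repressors of the Hes family bind sites that include CACGTG. Of 12 responding genes whose promoter sequence was sought and found, the 4 with a match to either are shown. The 250 bases before the transcription start are from RefSeq (GRCm38.p6), written 5′ to 3′ on the strand of the gene. Capitals mark TGGGAA on either strand (TTCCCA on the other) or CACGTG, which reads the same on both strands. Nrarp, Hes5 and Id4 rose and Gadd45g fell. The other 8, which had neither motif in this window, were Dtx1, Notch1, Jag1, Ccno, Hes6, Tal2, Slc2a1 and Trh. Hes1, Hey1, Sox9, Insm1, Lefty1 and Lefty2 were sought too, but no promoter sequence was found for them.
Nrarp, chr2:25180508-25180757, plus strand: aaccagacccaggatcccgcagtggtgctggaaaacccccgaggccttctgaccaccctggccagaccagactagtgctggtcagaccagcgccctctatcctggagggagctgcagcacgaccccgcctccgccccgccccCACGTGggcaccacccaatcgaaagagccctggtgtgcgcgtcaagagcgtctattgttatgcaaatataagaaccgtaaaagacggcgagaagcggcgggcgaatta
Hes5, chr4:154960673-154960922, plus strand: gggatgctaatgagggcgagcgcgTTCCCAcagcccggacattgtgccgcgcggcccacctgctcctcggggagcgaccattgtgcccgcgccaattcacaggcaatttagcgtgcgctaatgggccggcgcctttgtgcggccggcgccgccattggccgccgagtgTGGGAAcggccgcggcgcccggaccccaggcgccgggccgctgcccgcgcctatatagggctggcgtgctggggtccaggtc
Id4, chr13:48260866-48261115, plus strand: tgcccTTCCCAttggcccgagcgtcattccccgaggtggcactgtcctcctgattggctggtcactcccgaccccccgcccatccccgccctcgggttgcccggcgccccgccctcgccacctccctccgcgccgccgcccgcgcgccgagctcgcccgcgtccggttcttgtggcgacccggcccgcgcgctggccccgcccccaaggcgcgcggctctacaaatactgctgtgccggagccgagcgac
Gadd45g, chr13:51846425-51846674, plus strand: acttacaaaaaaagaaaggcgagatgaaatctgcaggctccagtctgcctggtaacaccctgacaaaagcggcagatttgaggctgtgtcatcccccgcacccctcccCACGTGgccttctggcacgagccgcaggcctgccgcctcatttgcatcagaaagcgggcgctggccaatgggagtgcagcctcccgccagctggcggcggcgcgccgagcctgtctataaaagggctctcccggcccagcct
In Hes5 the core began 226 and 82 bases before the start, both times within the longer GTGGGAA, and in Id4 it began 245 bases before. CACGTG began 108 bases before the start of Nrarp and 142 before that of Gadd45g. Among 27025 genes with a promoter of this length TGGGAA was in 24.1% and CACGTG in 6.86%, and GTGGGAA, which overlaps the first motif, was in 6.18%. Among the 7964 of them that were tested on the array, TGGGAA was in 23.7%, CACGTG in 9.78% and GTGGGAA in 6.28%. A promoter was found for 142 of the 187 called genes, 93 higher and 49 lower. TGGGAA was in 30.1% of promoters of genes called higher and 12.2% of those called lower, GTGGGAA in 8.6% and 8.16%, and CACGTG in 8.6% and 12.2%. Another motif searched on both strands, CACNAG, was in 37.6% and 32.7%, against 39.5% of tested genes. It is not marked above. Dtx1, Notch1, Hes6, Slc2a1, Trh, Nrarp, Id4 and Gadd45g held it, and Hes5, Jag1, Ccno and Tal2 did not. These shares were not tested, and the matches describe letters only and show no binding.

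Receptors and ligands of the pathway changed in few members. Of 9 tested, 2 were higher in Dox and 0 lower, with a list median of 0.09. Notch1 had levels of 10.24, 9.97, 10.36 and 10.33 in Dox, against 9.16, 9.28, 9.62 and 9.69 in DAPT. Every Dox sample exceeded every DAPT sample, and the difference was 0.79 ± 0.08 (adjusted p = 3.10e-07). Whether this probe reads the induced gene, the cell's own gene or both was not tested. Jag1, a membrane ligand of Notch, had levels of 7.57, 6.57, 8.20 and 8.02 in Dox, against 6.71, 6.03, 6.88 and 6.91 in DAPT. Dox exceeded DAPT in 4 of 4 pairs, while the groups overlapped because replicate 2 was low in both. Its difference was 0.95 ± 0.18 (adjusted p = 0.00292, and 1.000 without the block).

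The other receptors and ligands were not called. Notch3 differed by 0.15 ± 0.11 (adjusted p = 0.820), with Dox replicate 1 high, and Notch4 by 0.35 ± 0.10 (adjusted p = 0.0897), while a second and dimmer Notch4 probe gave -0.10. The ligand gene Dll1, whose transcription Hes proteins repress, had levels of 5.97, 5.84, 5.79 and 5.92 in Dox, against 6.31, 6.10, 5.99 and 6.66 in DAPT. All 4 Dox samples were lower, but only 2 of 4 DAPT and 0 of 4 Dox samples lay above background, and the adjusted p was 0.0586. The differences of Dll3 (-0.09 ± 0.14) and Jag2 (-0.05 ± 0.14) were smaller than their errors. Of 24 genes for Notch cleavage, modification and the nuclear complex 0 were called, with a median of 0.003 and a range of -0.21 for Numb to 0.36 for Mfng. Rbpj itself differed by -0.09 ± 0.11 (adjusted p = 0.920).

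Among genes that Hes repressors or Notch hold back in neural and endocrine precursors, 5 of 16 tested fell and 0 rose, with a median of -0.18 (-0.07 with genes at background taken at their bound). Insm1, a zinc finger factor of neuronal and endocrine differentiation, had levels of 5.70, 5.52, 5.85 and 5.93 in Dox, against 7.36, 6.93, 7.05 and 7.71 in DAPT. It was above background on 0 of 4 Dox samples and 4 of 4 DAPT samples, and so was at least 2.05-fold lower in Dox (adjusted p = 3.38e-08). Gadd45g, a growth arrest gene transcribed in cells that leave the progenitor state, had levels of 7.02, 7.04, 6.59 and 6.48 in Dox, against 8.01, 8.04, 7.50 and 8.28 in DAPT. Its groups did not overlap, DAPT replicate 3 was the lowest of its group, and the difference was -1.18 ± 0.17 (adjusted p = 9.38e-05).

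Ccno, which encodes cyclin O of multiciliated cell precursors, had levels of 6.90, 6.76, 6.93 and 6.87 in Dox, against 7.82, 7.70, 7.34 and 8.13 in DAPT. The Dox samples lay within a narrow band below all DAPT samples, for a difference of -0.88 ± 0.09 (adjusted p = 1.55e-06). Tal2, a bHLH factor of midbrain neurons, differed by -0.70 ± 0.10 (adjusted p = 4.70e-05) with no overlap between groups. Hes6, a member of the Hes family that counteracts Hes1, had levels of 11.79, 11.60, 11.74 and 11.75 in Dox, against 12.39, 11.96, 11.997 and 12.07 in DAPT and a difference of -0.39 ± 0.08 (adjusted p = 0.0104). Its second probe gave -0.44, and its call ended on 3 of 8 omissions of 1 sample, with an adjusted p of up to 0.0706 without Dox replicate 1. The neuronal genes Tubb3 (0.21 ± 0.10), Neurog1 (0.31 ± 0.11) and Elavl3 (-0.20 ± 0.10) were not called. Olig3, a bHLH factor of the dorsal neural tube that is on no list, was above background on 0 of 4 Dox and 4 of 4 DAPT samples and at least 1.57-fold lower in Dox (adjusted p = 1.20e-05).

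**Figure D3:**
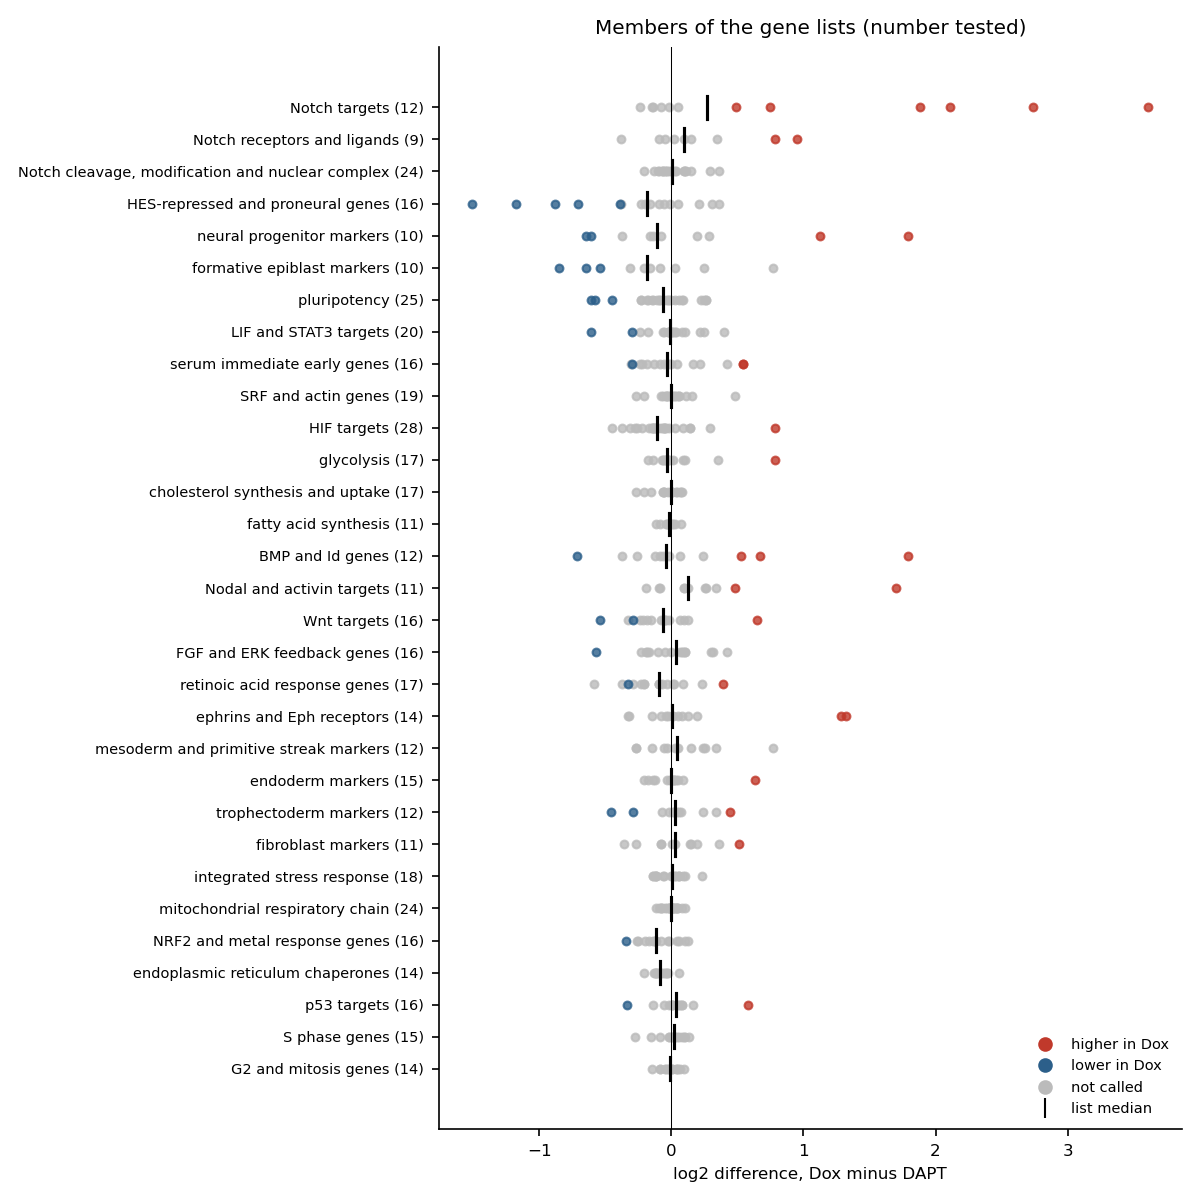
Each row is a gene list with the number of its genes tested. Points are genes by their log2 difference, Dox minus DAPT, red where called higher, blue where called lower and grey where not called, and black ticks are list medians. Notch targets hold the 3 rises furthest to the right and the HES-repressed list the falls furthest to the left, while lists such as the respiratory chain and S phase genes have no coloured point.

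Neural progenitor markers were called in both directions, 2 higher and 2 lower out of 10, with a list median of -0.11 (0 with bounds). Nes and Id4 were higher, and Gbx2 (-0.61 ± 0.06) and Zic2 lower. Id4, Gbx2 and Zic2 are described below. Nes, which encodes the intermediate filament nestin of neural stem cells, had levels of 8.02, 7.41, 7.84 and 8.16 in Dox, against 7.27, 5.88, 6.94 and 6.83 in DAPT. All Dox samples were higher, DAPT replicate 2 was the lowest, and the difference was 1.12 ± 0.21 (adjusted p = 0.00166, and 0.196 without the block). A second Nes probe lay at background on all 8 samples. The neural markers Sox1 and Pax6 were above background on 0 of 8 samples.

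Of 10 markers of the formative epiblast, the state that follows naive pluripotency, 3 were lower in Dox and 0 higher (median -0.19, or -0.13 with bounds). Pou3f1, a POU factor that rises as ES cells become primed for neural fate, had levels of 9.71, 9.32, 9.39 and 9.33 in Dox, against 10.63, 10.05, 10.39 and 10.11 in DAPT. The groups did not overlap and the difference was -0.85 ± 0.10 (adjusted p = 3.76e-06). Lef1, a transcription factor of Wnt signaling, differed by -0.54 ± 0.09 (adjusted p = 0.000422), lower in 4 of 4 pairs, and was above background on 1 of 4 Dox and 3 of 4 DAPT samples. Zic2 passed (adjusted p = 0.0261) with 0 of 4 Dox and 2 of 4 DAPT samples above background, so its size is left out, and its call ended on 6 of 8 omissions of 1 sample, with an adjusted p of up to 0.159 without DAPT replicate 4. Fgf5 (0.02 ± 0.12) and Otx2 (-0.16 ± 0.11) were not called.

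Most pluripotency genes were not called. Of 25 tested genes 3 were lower in Dox and 0 higher, with a median of -0.07. Gbx2, a homeobox gene that LIF and STAT3 sustain in ES cells, had levels of 12.85, 12.64, 12.79 and 12.99 in Dox, against 13.51, 13.31, 13.35 and 13.52 in DAPT. The groups were separate although the step was small beside the level, and the difference was -0.61 ± 0.06 (adjusted p = 2.51e-07). Klf2, a Krüppel-like factor of naive cells, had levels of 10.13, 9.81, 10.10 and 9.50 in Dox, against 10.80, 10.37, 10.49 and 10.20 in DAPT and a difference of -0.58 ± 0.07 (adjusted p = 9.82e-06, and 0.461 without the block). Nr0b1, the orphan receptor Dax1, differed by -0.45 ± 0.11 (adjusted p = 0.0297) with overlapping groups. Its call ended on 5 of 8 omissions of 1 sample. The core factors Pou5f1 (-0.04 ± 0.07, adjusted p = 0.966), Sox2 (-0.14 ± 0.10, 0.819) and Nanog (0.26 ± 0.07, 0.0627) were not called, nor were Klf4 (-0.18 ± 0.07), Esrrb (0.06 ± 0.06) and Zfp42 (0.03 ± 0.09). Nanog was higher in Dox in 4 of 4 pairs, and its other probes gave 0.22 and 0.30. The Sox2 pairs differed by -0.63, -0.24, 0.03 and 0.29, and its second probe gave 0.09.

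Among secreted signals, the Lefty genes were higher in Dox than in DAPT. Lefty1 and Lefty2 encode inhibitors of Nodal and were the 2 of 11 tested Nodal and activin genes called higher, with 0 lower and a list median of 0.12 (0.10 with bounds). Lefty2 had levels of 12.60, 12.33, 11.79 and 10.75 in Dox, against 11.32, 10.63, 9.83 and 8.90 in DAPT. Replicate 1 was the highest and replicate 4 the lowest in both groups, so the groups overlapped while every pair was higher in Dox, and the difference was 1.70 ± 0.17 (adjusted p = 5.43e-07, and 0.839 without the block). Lefty1 had levels of 12.64, 12.51, 12.02 and 11.15 in Dox, against 12.32, 12.09, 11.41 and 10.57 in DAPT and a difference of 0.48 ± 0.11 (adjusted p = 0.0205), which lost its call on 4 of 8 omissions of 1 sample. Its groups overlapped, and its call was lost without the block. In Dox its level differed from N2B27 by only -0.01 ± 0.11. Nodal itself differed by 0.10 ± 0.06 and was not called.

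The Id genes, which encode partners that keep bHLH factors from binding DNA, moved in opposite directions. Id4 had levels of 7.51, 6.83, 7.93 and 7.46 in Dox, against 5.997, 4.83, 6.12 and 5.61 in DAPT. It was above background on 4 of 4 Dox and 0 of 4 DAPT samples and at least 2.31-fold higher in Dox (adjusted p = 2.07e-05). Id1 had levels of 11.003, 10.79, 10.40 and 10.09 in Dox, against 9.91, 10.35, 9.91 and 9.44 in DAPT and a difference of 0.67 ± 0.10 (adjusted p = 0.000110), and Id3 differed by 0.53 ± 0.09 (adjusted p = 0.000773). Id2 went the other way, with levels of 7.90, 7.16, 7.78 and 8.02 in Dox, against 8.77, 7.85, 8.41 and 8.70 in DAPT and a difference of -0.72 ± 0.09 (adjusted p = 1.86e-05). For Id1, Id2 and Id3 the groups overlapped, every pair had the same direction, and the call was lost without the block. With these 4 the BMP and Id list had 3 of 12 members higher and 1 lower (median -0.04). Bmp4 (-0.26 ± 0.07) was not called.

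Ephrins, membrane ligands of Eph receptors, rose in 2 of 14 members of their list, with 0 lower and a median of 0.01. Efnb1 had levels of 11.12, 10.19, 10.30 and 10.15 in Dox, against 9.99, 9.01, 8.87 and 8.77 in DAPT. Replicate 1 was high in both groups, the groups did not overlap, and the difference was 1.28 ± 0.08 (adjusted p = 2.17e-10, and 0.561 without the block). Efna1 had levels of 8.69, 8.04, 8.38 and 7.44 in Dox, against 6.76, 7.23, 6.80 and 6.47 in DAPT and a difference of 1.32 ± 0.12 (adjusted p = 1.14e-07). The receptor genes Epha1 (-0.33 ± 0.09) and Epha2 (-0.32 ± 0.09) were not called.

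Several of the largest changes were in genes on no list. Trh, the precursor of thyrotropin-releasing hormone, had levels of 15.27, 14.87, 14.74 and 14.55 in Dox, against 13.70, 12.98, 12.61 and 12.25 in DAPT. All Dox samples exceeded all DAPT samples, and the difference was 1.97 ± 0.10 (adjusted p = 7.80e-12). Cntnap2, a cell adhesion gene of the nervous system, had levels of 9.66, 8.52, 9.08 and 8.53 in Dox, against 7.11, 7.45, 7.26 and 7.37 in DAPT and a difference of 1.65 ± 0.20 (adjusted p = 9.68e-06). A second Cntnap2 probe, which did not pass the filter, was above background on 1 of 4 samples in each group and gave -0.30. Higd1b and the tyrosine kinase gene Tec were above background on 4 of 4 Dox and 0 of 4 DAPT samples, and were at least 2.01-fold and 1.40-fold higher in Dox (adjusted p = 4.02e-06 and 0.000419).

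The other large rises were Rerg, a Ras-like growth inhibitor (1.26 ± 0.14), Spsb1, an adaptor of a ubiquitin ligase (1.21 ± 0.10), and Prickle1, a planar cell polarity gene (1.18 ± 0.11). For Rerg and Prickle1 the groups overlapped while every pair was higher in Dox, and the calls were lost without the block (adjusted p = 0.279 and 0.355). Falls of similar rank were Hoxa5, a homeobox gene of the trunk, with levels of 8.001, 6.85, 8.18 and 8.06 in Dox, against 9.32, 8.03, 9.16 and 8.88 in DAPT. Replicate 2 was low in both groups, so they overlapped, but the difference was -1.08 ± 0.09 (adjusted p = 3.63e-08, and 0.864 without the block). Ccdc160, a coiled-coil gene, had levels of 7.94, 7.81, 8.04 and 8.01 in Dox, against 8.81, 8.79, 8.92 and 8.65 in DAPT and a difference of -0.84 ± 0.06 (adjusted p = 9.82e-09). Further falls were the peptide hormone gene Edn2 (-0.88 ± 0.11), Sertad4 (-0.72 ± 0.10), the Wnt ligand gene Wnt8a (-0.68 ± 0.13), the midbrain homeobox gene En2 (-0.67 ± 0.09) and Slc35d3 (-0.72 ± 0.17). For Edn2 and Wnt8a the groups overlapped, and Edn2, Wnt8a, En2 and Slc35d3 lost their calls without the block. Slc35d3 lay above background on 1 of 4 Dox samples, and its call ended on 4 of 8 omissions of 1 sample.

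Other signaling and stress lists held single calls in either direction. The phosphatase gene Dusp1 (0.54 ± 0.08) and Gadd45b (0.54 ± 0.11), both serum immediate early genes, were higher, and Junb (-0.30 ± 0.07) was lower, out of 16 tested. Egr1 (0.42 ± 0.12, adjusted p = 0.0711), Fos (0.22 ± 0.14), Ccn1 (-0.13 ± 0.13) and Ccn2 (0.16 ± 0.14) were not called. Among 16 FGF and ERK feedback genes 1 was lower, the phosphatase gene Dusp4 (-0.57 ± 0.09). Among 16 Wnt targets Cdx1 was higher (0.65 ± 0.12) and Cdx2 lower (-0.29 ± 0.07), beside the fall of Lef1. Cdx1 was above background on 4 of 4 Dox and 1 of 4 DAPT samples. Its groups overlapped while every pair was higher in Dox, and its call was lost without the block. Among 17 retinoic acid response genes Tgm2 was higher (0.39 ± 0.08) and the receptor gene Rarg lower (-0.33 ± 0.08). Omissions of 1 sample ended the calls of Cdx2 and Rarg (7 of 8 each), Junb (4 of 8) and Tgm2 (2 of 8), with adjusted p-values of up to 0.142 and 0.121 for the first pair.

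Of 15 endoderm markers only the chemokine receptor gene Cxcr4 was called (0.64 ± 0.10), and of 11 fibroblast markers only Pdgfrb (0.51 ± 0.08). Trophectoderm markers had Cdh3 higher (0.44 ± 0.07) and Tfap2c (-0.46 ± 0.06) and Cdx2 lower, out of 12. The p53 targets Pmaip1 (0.58 ± 0.10) and Gadd45a (-0.33 ± 0.06) moved in opposite directions, and of 16 NRF2 and metal response genes only Srxn1 was called (-0.35 ± 0.06). No gene was called among the mesoderm markers (12 tested), SRF and actin genes (19), integrated stress response (18), respiratory chain (24), cholesterol synthesis (17), fatty acid synthesis (11), endoplasmic reticulum chaperones (14), S phase genes (15) and G2 and mitosis genes (14). Over the 31 lists 44 of 441 tested members were called, 25 higher and 19 lower. Of all 9825 genes 1.9% were called, 1.23% higher and 0.672% lower. The lists were chosen with earlier results of these data known, so their share was not tested against that of all genes.

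The N2B27 group shows on which side of untreated cells each group lay. Dox and DAPT are both set against the same 4 N2B27 samples, so these differences are given side by side only. For the 121 genes called higher in Dox than in DAPT, the median difference from N2B27 was 0.48 for Dox and -0.10 for DAPT. For the 66 called lower it was -0.38 for Dox and 0.03 for DAPT. Dox lay further from N2B27 than DAPT in 173 of the 187, against 4956 of all 9825 genes. Tested on its own, Dox against N2B27 called 170 genes (1.73%). DAPT against N2B27 called 0 genes (0%) in limma, where 563 had an unadjusted p under 0.05, and the authors' processed values gave 2.

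Nrarp differed from N2B27 by 3.45 ± 0.19 in Dox and -0.16 ± 0.19 in DAPT, Hey1 by 1.67 ± 0.16 and -0.21 ± 0.16, and Hes1 by 0.72 ± 0.08 and -0.03 ± 0.08. For these targets nearly the whole distance between Dox and DAPT lay on the Dox side. Lefty1 had the opposite placement, at -0.01 ± 0.11 from N2B27 in Dox and -0.50 ± 0.11 in DAPT (adjusted p = 0.442 for DAPT). Lefty2 lay on both sides, at 1.16 ± 0.17 in Dox and -0.54 ± 0.17 in DAPT. In 14 of the 187 genes DAPT was the group further from N2B27, and none of these DAPT differences passed, with the lowest adjusted p at 0.442. No Notch target was called below N2B27 in DAPT, so these values do not show that DAPT lowered Notch signaling here. Hes5 was above background on only 1 of 4 N2B27 samples, which leaves little room to see a fall.

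**Figure D4:**
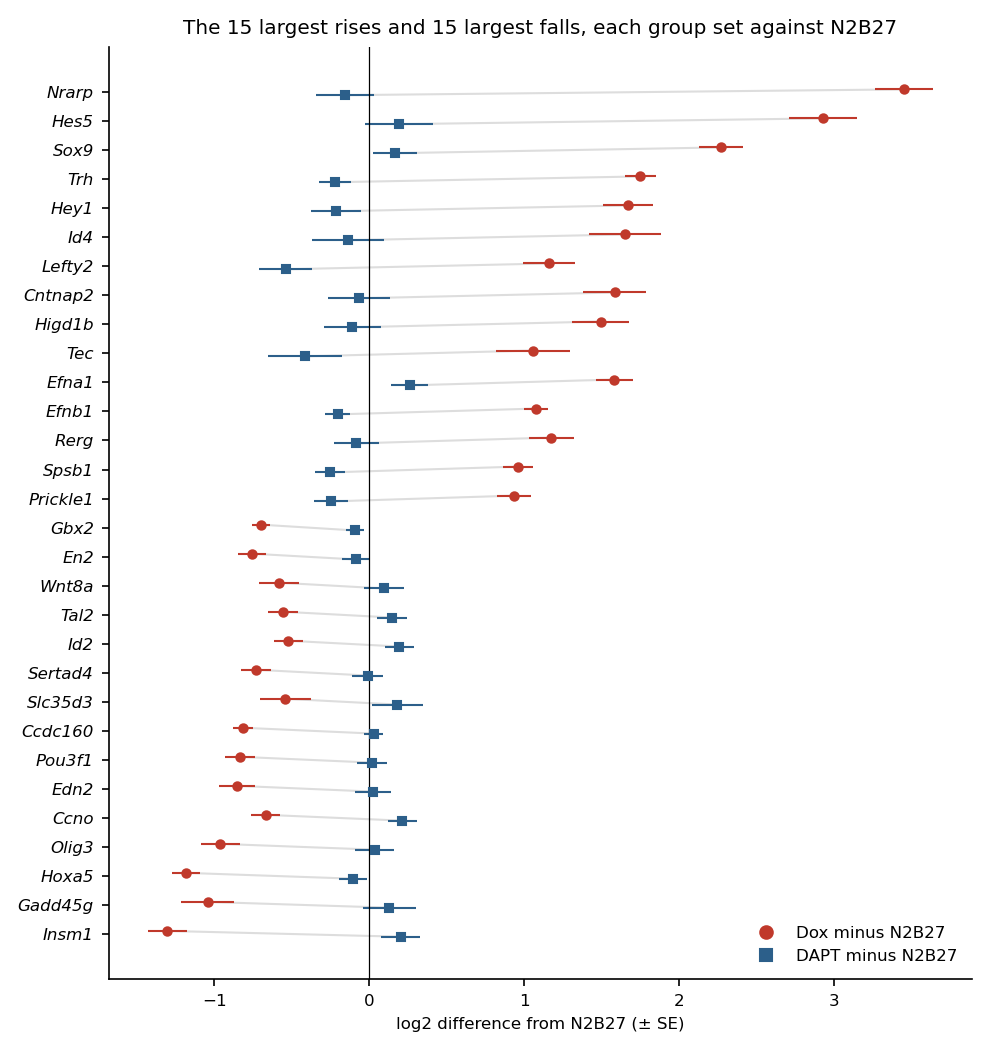
For the 15 largest rises and 15 largest falls between Dox and DAPT, red circles show the log2 difference of Dox from N2B27 and blue squares that of DAPT from N2B27, with bars of 1 SE. The circles lie away from 0 and the squares close to it, Lefty2 and Tec having the squares furthest from 0. Tec was above background on 0 of 4 DAPT and 0 of 4 N2B27 samples, so its square compares readings at background. For genes at background in a group the plotted differences are the fitted ones and not bounds. Both groups share the N2B27 samples.

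The same contrast under 1% oxygen, between 1% O2+Dox and 1% O2+DAPT, gave 199 calls (2.03%). Of the 187 genes called at ambient oxygen, 180 had the same direction there, against 5623 of all 9825 genes, and 113 were called. A direct test of whether the difference depended on oxygen called 1 gene (0.0102%) in limma, while 464 had an unadjusted p under 0.05. Nrarp differed by 3.61 ± 0.19 at ambient and 3.13 ± 0.19 at 1% oxygen, with an interaction of 0.49 ± 0.26 (adjusted p = 0.996). Hes5 was fitted at 2.74 and 2.79, Sox9 at 2.11 ± 0.14 and 1.63 ± 0.14, and Insm1 at -1.51 and -1.37, and none of these interactions passed.

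The gene called was Slc2a1, which encodes the glucose transporter GLUT1 and is a known target of hypoxia-inducible factor (HIF). At ambient oxygen its levels were 14.03, 13.80, 13.89 and 13.91 in Dox, against 13.27, 13.09, 13.14 and 12.99 in DAPT. The Dox samples were all higher and close together, with a difference of 0.78 ± 0.07 (adjusted p = 1.59e-07). Under 1% oxygen they were 14.67, 14.64, 14.60 and 14.62 in 1% O2+Dox, against 14.79, 14.84, 14.79 and 14.43 in 1% O2+DAPT. There both groups were higher than either was at ambient oxygen and overlapped, with a difference of -0.08 ± 0.07. The ambient difference minus the hypoxic one was 0.86 ± 0.10 (adjusted p = 0.000233). Within replicates 1 and 2 alone the interaction was 0.89 and within replicates 3 and 4 alone 0.83, neither passing in these smaller fits (adjusted p = 0.410 and 0.961).

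Slc2a1 was the only 1 of 28 HIF targets called between Dox and DAPT at ambient oxygen, where the list median was -0.11 (-0.07 with bounds). It was also the only 1 of 17 glycolysis genes, and of all genes 1.9% were called. Vegfa (-0.06 ± 0.11) and Egln3 (-0.07 ± 0.18) were not called. The next lowest p in the interaction was that of Ccdc160, whose difference was -0.84 ± 0.06 at ambient and -0.35 ± 0.06 at 1% oxygen (interaction -0.49 ± 0.09, adjusted p = 0.0832).

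**Figure D5:**
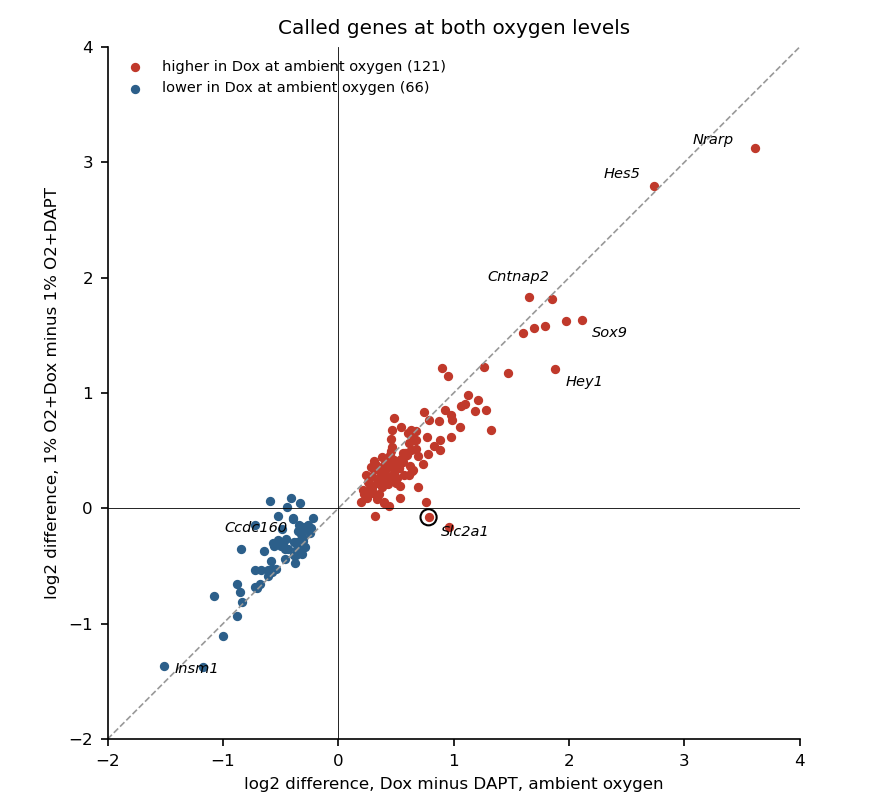
The 187 genes called at ambient oxygen are placed by their log2 difference, Dox minus DAPT, at ambient oxygen (horizontal axis) and under 1% oxygen (vertical axis). Red points were higher and blue points lower in Dox at ambient oxygen, and the dashed line marks equal differences. On both axes 180 points have the same sign, and Slc2a1, ringed, lies near 0 on the vertical axis. Points were chosen by their ambient value, so a spread towards 0 on the vertical axis is built in.

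Of 60 named genes called, 23 passed without the block as well. These were the targets Nrarp, Hes5, Hey1, Hes1 and Sox9, Notch1, Id4, Trh, Cntnap2, Higd1b, Spsb1, Efna1, Cxcr4 and Slc2a1 among the rises, and Insm1, Gadd45g, Olig3, Ccno, Tal2, Pou3f1, Gbx2, Ccdc160 and Sertad4 among the falls. The other 37 rest on the pairing of samples by replicate number.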

How the data were processed

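Illumina BeadChip arrays with 24611 probes measured total RNA. The deposited main table holds linear intensity, not normalized per the file headers, with a background already subtracted (27.2% to 29.9% of values per array below 0), and no detection p-values. The other deposited table gives intensity after the authors' processing, with a floor of 50. All 30 columns matched their own array best, and 99.96% of the first array's values equalled its signal or the floor within 0.01. Its scale is therefore linear and uncentred in the direction of the signal, its median is 50 on every array, and the sources used here do not give how its arrays were normalized. BeadStudio was the program per the submitters' processing notes.

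Intensities were corrected by normexp (limma 3.58.1, R 4.3.3, offset 0), taken to log2 and quantile-normalized. Probe names came from GEO's platform annotation (20983 with 1 symbol, 1 with several, 3627 with none), updated through Entrez for 20967. Named probes above their array's median on at least 4 of 28 samples were kept (12279), and the brightest per gene was used, giving 9825 genes, 1949 of them with a second probe. A probe was above background when its signal passed the 98th percentile of the array's negative signals mirrored around 0 (29.3 to 41.6), a limit set after seeing the data. Where a group had 0 samples above it, "at least N-fold" sets the bright mean against the higher of limit and value. The number of arrays limits the precision.

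All 28 samples in 7 groups entered 1 limma model with the replicate number as a fixed block (18 residual degrees of freedom), with Benjamini-Hochberg adjustment over all genes and two-sided tests. The pairing comes from the replicate numbers in the sample titles. After group means were removed, same-numbered Dox and DAPT samples correlated at 0.819, 0.821, 0.832 and 0.814, each highest with its own number. The script was tested on simulated data.

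Named genes were the 15 largest rises and 15 largest falls that passed with the same sign in 4 of 4 pairs and the brighter group above background on 4 of 4 samples, all called members of the 31 gene lists (599 members), a set of Notch, pluripotency, hypoxia and serum genes whatever their test, and the 5 lowest p in the oxygen interaction. Comparison, members and lists were chosen with earlier results of these data known, so lists are described by counts and medians with no set test. Alternatives were the block (none or random), the 8 samples alone, each replicate set, median scaling, an offset of 50, other filters on dim probes, the authors' values, first arrays only, and leaving out each sample.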

Additional observations from a re-analysis of the deposited data

Results flagged for a closer look

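For 1 gene a test found the difference between Dox and DAPT to depend on oxygen. Slc2a1 differed by 0.86 more at ambient oxygen than under 1% oxygen. For Igfbp5 and Wdr72 all 4 pairs were higher in Dox at ambient oxygen and all 4 lower in 1% O2+Dox than in 1% O2+DAPT. The difference between the oxygen levels was 0.63 for Igfbp5 (adjusted p = 0.565) and 0.52 for Wdr72 (0.174), so neither passed limma's test.

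Single samples stood apart from the other 3 of their group, at log2 levels, in 9 of 162 groups looked at, where chance gives about 1 in 20. High samples were Efnb1 in Dox replicate 1 (11.12, the others 10.15 to 10.30), Notch3 in Dox replicate 1 (9.53), Chst7 in DAPT replicate 1 (7.08), Rerg in DAPT replicate 1 (8.53), Wnt8a in DAPT replicate 1 (9.59) and Tgm2 in DAPT replicate 3 (8.56). Low samples were Hoxa5 in Dox replicate 2 (6.85, the others 8.001 to 8.18), Hey1 in DAPT replicate 4 (6.34) and Egr1 in DAPT replicate 2 (8.41).

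Probes with no gene name were left out of the comparisons. Of 1665 such probes that passed the filter 16 were called between Dox and DAPT (0.961%), 13 higher and 3 lower in Dox, with differences of up to 0.77 and down to -0.73.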

How the results depend on the processing

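No named gene that was called reversed its direction under the alternatives run. For several of them this was fixed in advance. The choice of block leaves the difference itself unchanged, and all 60 called named genes had the same direction in both replicate sets. With no replicate block the count of genes called was 42 in place of 187, and list members called were 16 in place of 44. The 8 samples alone gave 8 genes and 6 list members with no replicate block, and 138 and 41 with it. Replicates 1 and 2 alone gave 81 genes and 24 list members, and replicates 3 and 4 alone 54 and 21, with fewer samples in these fits. Other alternatives gave 148 to 212 genes. Leaving out 1 sample gave 139 to 166 genes and 37 to 44 list members. The oxygen interaction, with 1 gene called, gave 2 with the block as a random effect, with median scaling and with the authors' processed values, 0 in replicates 3 and 4 alone, and 1 to 2 when 1 sample was left out, 2 without Dox replicate 4. Slc2a1 itself kept its interaction call, at 0.76 to 0.92, except in the fits on 1 replicate set. The cause of these changes was not tested. The authors' processed values ended 11 of 60 named calls, among them Tec, Olig3, Lef1 and Cdx1.

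Nr0b1 passed at an adjusted p of 0.0297 and, with 1 sample left out, reached 0.207 without Dox replicate 1. Lefty1 and Slc35d3 reached 0.104 without DAPT replicate 4 and 0.0830 without Dox replicate 3. Arrays limit low signals: 17 of the 187 called genes were at background in all samples of 1 group, and 1 of them, Rsad2, named after its values were seen, in both.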

Other observations

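Genes outside the lists and the naming rule were looked at after their values were seen. Among single homeobox genes, picked by their values and not as a group, the falls included Hoxa7 (7.11 ± 0.30 in Dox, against 7.60 ± 0.27 in DAPT, difference -0.49 ± 0.11, adjusted p = 0.0171) and En1 (6.38 ± 0.47 in Dox, against 6.90 ± 0.60 in DAPT, -0.53 ± 0.13, 0.0389), while the homeobox gene Cdx1 was among the rises. For Hoxa7 and En1 the Dox and DAPT samples overlapped while every pair was lower in Dox. Gsx1 passed too (adjusted p = 0.0311), with 0 of 4 Dox and 2 of 4 DAPT samples above background. The transcriptional regulator genes Lmo4 (-0.61 ± 0.07) and Phf6 (-0.53 ± 0.07) were lower, as was Fst, which encodes the activin-binding protein follistatin (-0.47 ± 0.10). Cdkn1c, a cell-cycle inhibitor, differed by -0.33 ± 0.07 (adjusted p = 0.00651).

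Other single genes were among the rises. Has3, a hyaluronan synthase, was above background on 3 of 4 Dox and 0 of 4 DAPT samples and at least 1.11-fold higher in Dox (adjusted p = 0.000174). Ptges, which makes prostaglandin E2, had levels of 8.08 ± 0.56 in Dox, against 6.98 ± 0.48 in DAPT (difference 1.10 ± 0.14, adjusted p = 1.20e-05). The chemokine gene Cxcl1 differed by 1.05 ± 0.14, Fjx1, a relative of the fly gene four-jointed, by 1.07 ± 0.09, and Fgf15 by 0.88 ± 0.11. Smad3, a mediator of Nodal and TGF-beta signals, differed by 0.28 ± 0.07 (adjusted p = 0.0190). The adhesion gene Jup, which encodes plakoglobin, differed by 0.43 ± 0.05, and passed without the block as well (adjusted p = 0.0238).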
